A study of Mus musculus and Meriones unguiculatus with 4 samples.

Results

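The receptors for bone morphogenetic proteins (BMPs), activins and transforming growth factor beta (TGF-beta) were described in the enamel knot region of tooth germs from the lower jaws of 2 rodents. The set was chosen by gene name and holds 10 genes: Bmpr1a, Bmpr1b, Acvr1, Acvr1b, Tgfbr1, Bmpr2, Acvr2a, Acvr2b, Tgfbr2 and Tgfbr3. They are 10 of 25745 rows of the gerbil table and 11 of 27632 rows of the mouse table, where Acvr1 has 2 loci. RNA came from wild-type gerbil (Meriones unguiculatus) embryos labelled embryonic day 15 and wild-type mouse embryos labelled embryonic day 13, with 2 samples per species. The dissected germs were fixed and cryosectioned, the knot region was cut out by laser, and its mRNA was sequenced. Neither the strains nor the number of embryos behind a sample is stated in the labels, so the spread within a species may be technical.

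The gerbil libraries are called E21 and E23 and the mouse libraries PEK and SEK, after the endings of their column names. No label says what these endings mean, and E21 and E23 do not match the labelled embryonic day 15. Should they mark separate stages or separate parts of the germ, libraries of one species would not be replicates, and every SD and SE would include that difference.

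Signalling through this family starts when a secreted ligand brings type I and type II receptors into one complex. Both are serine/threonine kinases: the type II receptor phosphorylates the type I receptor, which then phosphorylates Smad proteins. Bmpr1a, Bmpr1b and Acvr1 are the type I receptors of the BMP branch, and Acvr1b and Tgfbr1 those of the activin and TGF-beta branches. Among type II receptors, Bmpr2 serves BMPs, Tgfbr2 serves TGF-beta, and Acvr2a and Acvr2b bind activins and also BMPs. Tgfbr3, or betaglycan, is a coreceptor with no kinase domain that presents TGF-beta and binds inhibin. In tooth development, BMP4 made first by the epithelium and then by the mesenchyme acts on the enamel knot, the signalling centre of the dental epithelium.

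The deposited values are TPM for gerbil and FPKM for mouse, both of which are per length of the gene model used. To set the species side by side, each library was rescaled to a sum of 1000000 over the 13325 genes matched by symbol, and these values are called levels. The factor was larger for gerbil than for mouse. Bmpr2 went from 24.04 TPM to 181 in gerbil E21 and from 6.01 FPKM to 13.7 in mouse PEK. So a level of 1 stands for a smaller deposited value in gerbil than in mouse, also where it serves as a minimum. Log2 differences are gerbil minus mouse on log2(level + 1), after the trend along transcript length was subtracted from each library. That trend was steep: before its removal the median log2 difference was -1.77 in the 1034 shortest genes and 1.43 in the 1033 longest. Both values are from libraries centred on the median of all genes. A gene is called higher in one species where the lower of that species' 2 corrected levels was at least 2-fold above the higher one of the other species. Levels are printed without the length correction and without centring on the median of all genes, so their ratio can differ from the fold beside them. Without either step, the median log2 difference over all genes tested was 0.61, toward gerbil. No significance test was run, because the tables were normalized separately and an exact two-sided permutation of 2 against 2 libraries cannot give a p below 0.333. The depth is unknown for mouse and was not analysed here for gerbil, so no counting interval is given.

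The dissected region held markers of the dental epithelium and the knot in every library. The 7 epithelial markers summed to levels of 8951 and 7855 in the gerbil libraries E21 and E23, against 5339 and 7632 in the mouse libraries PEK and SEK. The 8 measured enamel knot markers summed to 1774 and 1731 in gerbil, against 4554 and 2709 in mouse, and no marker of either list was at 0. Of the 7 epithelial markers, 2 were called higher in gerbil and 1 in mouse (median log2 difference -0.32). Of the 8 knot markers, 0 were called higher in gerbil and 3 in mouse (median -1.23). All of these averaged at least 1 in gerbil and in mouse, and of all 9288 such genes 12.5% were called higher in gerbil and 13.4% in mouse. The 9 mesenchyme markers summed to 1859 and 3534 in gerbil, against 722 and 689.9 in mouse, with none at 0. Their median log2 difference was 1.29 with 0 of 9 called, against the same 12.5% and 13.4% of genes. Without the length correction, 3 of the 9 were called higher in gerbil and 1 in mouse, against 18.5% and 19.5% of all genes tested. The 5 measured muscle markers summed to 11.1 and 15.0 in gerbil against 133 and 402 in mouse, with 1 at 0 in E21. Of the 4 muscle markers that averaged at least 1 in gerbil and at least 1 in mouse, 0 were called higher in gerbil and 2 higher in mouse. Of all 9288 genes at that minimum, 12.5% and 13.4% were. The 5 measured endothelial markers summed to 1.28 and 116 in gerbil, against 5.61 and 16.1 in mouse, and the 3 measured blood and immune markers to 3.84 and 21.1 in gerbil, against 1.31 and 4.50 in mouse. The part that other cell types played in the receptor values was not tested. In such bulk samples, fewer cells of a type and less RNA per cell cannot be told apart.

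Of the 4 type II receptors, 3 were called between the species. Acvr2b and its close relative Acvr2a differed in opposite directions between the species. Acvr2b was lower in gerbil than in mouse, while Acvr2a and Bmpr2 were higher in gerbil. After the length correction, 2 of the 8 receptors that passed the filter on low levels were higher in gerbil and 2 higher in mouse, against 13.5% and 15.0% of all 10332 genes tested. All 8 had a level above 1 in every library, so none of them passed through one species alone. Their median log2 difference was 1.07, against -0.02 over all genes tested.

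Acvr2a and Acvr2b are encoded on different mouse chromosomes, and the bases before their starts are shown because the pair went in opposite directions. Only mouse sequence is shown, since no gerbil genome was at hand. The part of these sequences in the difference between the species was not tested. Both windows are from RefSeq (GRCm38.p6), both are on the plus strand, and they end before the gene start in both RefSeq and GENCODE M21. The Acvr2a window is chr2:48813859-48814108, which is 250 bases, and the Acvr2b window is chr9:119401928-119402117, which is 190 bases. The deposited Acvr2b locus itself begins at position 119402095, inside its window. Capitals mark the GC box GGGCGG, which reads CCGCCC where it lies on the minus strand.
Acvr2a: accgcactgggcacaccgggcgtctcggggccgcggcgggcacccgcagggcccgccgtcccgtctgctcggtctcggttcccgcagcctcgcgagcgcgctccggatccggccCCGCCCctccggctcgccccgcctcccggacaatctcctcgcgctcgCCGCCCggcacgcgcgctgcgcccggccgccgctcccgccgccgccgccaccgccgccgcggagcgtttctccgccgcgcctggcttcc
Acvr2b: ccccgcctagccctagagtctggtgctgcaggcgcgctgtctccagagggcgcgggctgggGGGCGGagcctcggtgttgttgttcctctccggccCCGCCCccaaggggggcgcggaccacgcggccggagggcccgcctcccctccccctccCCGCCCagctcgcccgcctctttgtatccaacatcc
The Acvr2a window held 2 GC boxes and the Acvr2b window 3. A GC box was found in 32.7% of all 32851 windows of 250 bases and in 30.7% of those of 190 bases. All windows compared end at the RefSeq start, whereas the Acvr2b window ends at the GENCODE start, further upstream. So the shares and median over 190 bases match its length but not its position. The GC content was 82.0% for Acvr2a and 74.7% for Acvr2b, against medians of 52.4% and 53.2% over all windows of the same lengths. Neither window held a TATA box (TATAAA) on either strand, which 12.4% of all windows of 250 bases and 9.44% of those of 190 bases did. A CCAAT box was absent from both as well, against 33.8% and 28.4% of all windows, as was the GC-rich Smad element (GGCGCC), against 9.59% and 8.20%. With no other match, no motif overlapped another.

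Acvr2b had levels of 35.9 and 17.9 in gerbil E21 and E23, against 111 and 78.8 in mouse PEK and SEK. Both gerbil libraries lay below both mouse libraries. Gerbil averaged 26.9 ± 12.7 and mouse 94.9 ± 22.8 (SD, n = 2 each, as for all means of levels), and the corrected log2 difference was -2.68 ± 0.47 (SE), a 6.41-fold difference. The call held in every alternative computed, among them no length correction (-2.45) and neither centring nor length correction (-1.84). Ranked among the genes tested, Acvr2b stood at the 41.6 and 29.0 percentile in gerbil and at the 82.6 and 76.5 percentile in mouse. The levels ranked here were not length-corrected. In the mouse table Acvr2b (ENSMUSG00000061393) spans positions 119402095 to 119433611 of chromosome 9 (GRCm38, plus strand) and overlaps Gm47320 on the opposite strand. The GENCODE gene ends further on, at position 119434995, so the deposited locus stops short of the annotated end. No alternative changed this locus, and its part in the Acvr2b value was not tested. No source used here says whether strand was used in counting, so reads of genes overlapping on opposite strands cannot be told apart, here or for Acvr2a.

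Acvr2a had levels of 107 and 82.5 in gerbil E21 and E23, against 6.04 and 4.66 in mouse PEK and SEK. The gap between the species was wide beside the spread within each. The mean was 94.5 ± 17.0 in gerbil and 5.35 ± 0.976 in mouse. The corrected log2 difference was 2.27 ± 0.19, which is 4.83-fold. It was 3.29 without the length correction, 1.73 with a GC trend also removed and 1.91 without rescaling, and called each time. The mouse locus of Acvr2a (ENSMUSG00000052155) spans positions 48814109 to 48903269 of chromosome 2 (plus strand) and overlaps Orc4 on the opposite strand. That is 89161 bases, while the gerbil Acvr2a gene spans only 31390. For Bmpr2 the spans were close, at 120292 bases in gerbil and 117759 in mouse. The length correction used mouse lengths only, and the part of an unlike gerbil gene model in the Acvr2a difference was not tested.

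Bmpr2, the type II receptor dedicated to BMPs, had levels of 181 and 202 in gerbil, against 13.7 and 4.46 in mouse PEK and SEK. It was the most abundant receptor of the gerbil libraries, and its gerbil libraries lay above both mouse libraries. The mean was 192 ± 14.8 in gerbil and 9.06 ± 6.51 in mouse. The corrected log2 difference was 2.17 ± 0.32, or 4.51-fold. Bmpr2 has the longest transcripts of the set, at 12899 bases of exon in the GENCODE annotation, and its difference without the length correction was 3.81. The difference was 1.65 with a GC trend also removed and 1.94 without rescaling, and called both times. In rank Bmpr2 stood at the 88.9 and 91.1 percentile of the gerbil libraries and at the 33.0 and 21.2 percentile of mouse PEK and SEK. These percentiles are on levels without the length correction, so they hold the length trend. The mouse Bmpr2 locus (ENSMUSG00000067336) spans positions 59762116 to 59879874 of chromosome 1 (plus strand) and overlaps Gm38125 on the same strand.

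Tgfbr2, which binds TGF-beta ligands, was not called. Its levels were 25.1 and 39.4 in gerbil E21 and E23, against 6.30 and 3.97 in mouse PEK and SEK. As printed, both gerbil values lay above both mouse values, but on the corrected scale the species overlapped, with a log2 difference of 0.43 ± 0.37. Without the length correction Tgfbr2 was called toward gerbil (1.82), and its transcript length of 8187 bases is the second longest of the set.

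**Figure D1:**
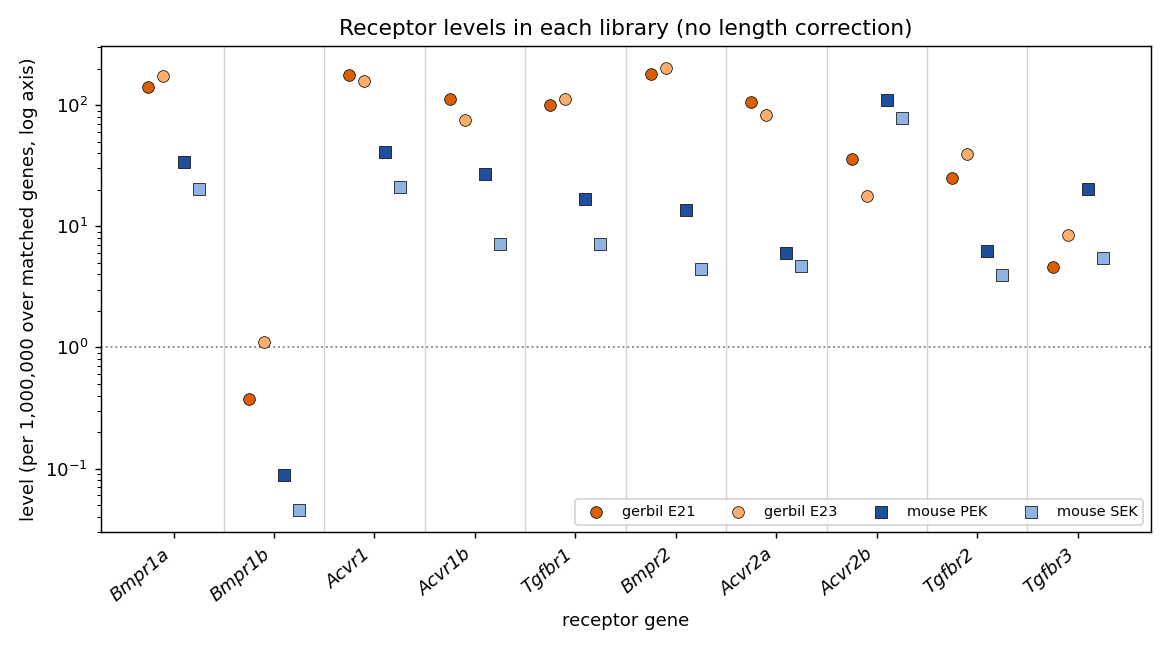
Level of each receptor gene (vertical log axis, per 1000000 over matched genes, without length correction) in the gerbil libraries E21 and E23 (circles) and the mouse libraries PEK and SEK (squares). The dotted line marks a level of 1. Acvr2b is higher in both mouse libraries, Tgfbr3 overlaps between the species, and the other 8 genes have both gerbil circles above both mouse squares before the length correction. The levels are not centred either, and over all genes tested the median uncentred log2 difference was 0.61, toward gerbil.

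Within a library, the balance of the type II receptors can be read on the deposited per-length values without rescaling between tables. Acvr2b made up 10.3% and 5.24% of the summed type II values in gerbil E21 and E23, against 81.0% and 85.8% in mouse PEK and SEK. Bmpr2 made up 52.0% and 59.1% in gerbil and 9.97% and 4.85% in mouse, and Acvr2a 30.5% and 24.1% in gerbil and 4.41% and 5.07% in mouse. So the leading type II transcript was Bmpr2 in both gerbil libraries and Acvr2b in both mouse libraries. The Acvr2a to Acvr2b ratio was 2.97 and 4.60 in gerbil, against 0.0544 and 0.0591 in mouse, a log2 difference of 6.03 between the ratios of the species, or 4.95 when each gene carries its length correction. The Bmpr2 to Acvr2a ratio overlapped, at 1.70 and 2.45 in gerbil, against 2.26 and 0.956 in mouse. These ratios depend on the lengths of the gene models in each table, whose part was not tested beyond the length correction.

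**Figure D2:**
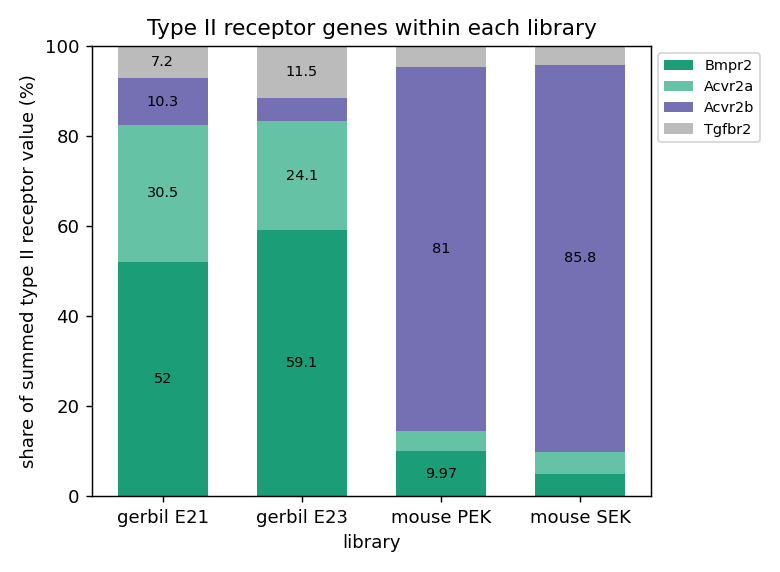
Share of each type II receptor gene in the summed type II value (percent, stacked bars) within each of the 4 libraries, on deposited TPM for gerbil and FPKM for mouse. Acvr2b holds 10.3% and 5.24% of the gerbil bars and 81.0% and 85.8% of the mouse bars.

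For the type I receptors of the BMP branch, the printed levels lay above those of mouse in both gerbil libraries. The call of Bmpr1a depended on the length correction, while that of Acvr1 did not and Bmpr1b was too low for one. Bmpr1a, the main BMP type I receptor of many epithelia, had levels of 140.1 and 173 in gerbil E21 and E23, against 33.7 and 20.3 in mouse PEK and SEK. The groups did not overlap, and the mean was 156 ± 23.1 in gerbil and 27.0 ± 9.48 in mouse. Its corrected log2 difference of 0.88 ± 0.20 did not reach the call, which it did toward gerbil if length was left uncorrected (1.91).

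Acvr1, a type I receptor for several BMPs, has no value in the comparison of genes with 1 row per table, because 2 mouse loci carry its symbol. The larger locus runs on the minus strand of chromosome 2 from position 58388644 to 58567244, as the annotated gene does. The smaller one is on the plus strand from position 58473575 to 58475342, inside the span of Acvr1 but on the strand opposite to it. Whether the smaller locus holds Acvr1 transcripts was not tested. The larger locus had mouse levels of 34.8 in PEK and 20.2 in SEK, and the smaller one 5.93 and 1.04. With the 2 loci summed, Acvr1 had levels of 177 and 158 in gerbil E21 and E23, against 40.8 and 21.3 in mouse. The groups did not overlap, and the corrected log2 difference was 1.64 ± 0.28, which would be called higher in gerbil, as it would be without the length correction (1.85).

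Bmpr1b, a type I receptor best known from cartilage, was near 0 in every library. Its deposited values were 0.05 and 0.13 TPM in gerbil E21 and E23 and 0.0392 and 0.0222 FPKM in mouse PEK and SEK. It did not pass the minimum mean level of 1, so no difference is given for it.

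Bmpr1a and Acvr1 stood close to each other within each library, by the deposited per-length values and the larger Acvr1 locus. The Bmpr1a to Acvr1 ratio was 0.792 and 1.09 in gerbil, against 0.968 and 1.01 in mouse. The 2 species overlapped in this ratio, in contrast to the type II pair.

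The type I receptors of the activin and TGF-beta branches were not called different. Acvr1b, the main activin type I receptor, had levels of 112 and 76.0 in gerbil E21 and E23, against 27.2 in mouse PEK and 7.18 in mouse SEK. Its mouse libraries differed more from each other than its gerbil libraries did, and the corrected log2 difference was 1.45 ± 0.70. It was called higher in gerbil without mouse PEK (2.11) and without gerbil E23 (1.70), but not without mouse SEK (0.78) or without gerbil E21 (1.22). Tgfbr1, the TGF-beta type I receptor, had levels of 100.3 and 112 in gerbil, against 16.7 and 7.18 in mouse PEK and SEK, and a mean of 106 ± 8.25 in gerbil and 11.9 ± 6.72 in mouse. Its corrected log2 difference was 1.26 ± 0.23, and the gap between the nearest libraries was 0.97 on the log2 scale where the call needs 1. Tgfbr1 reached the call toward gerbil when length was left uncorrected (2.54), with no filter on low levels (1.52), and when any 1 of the 4 libraries was left out (lowest 1.09, without mouse SEK). Leaving out a library loosens the rule, since fewer values then have to be apart. The Acvr1b to Tgfbr1 ratio within a library was 1.12 and 0.678 in gerbil, against 1.63 and 1.00 in mouse, and these overlapped.

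Tgfbr3, the coreceptor, was called higher in mouse, but this call rests on the length correction. Its levels were 4.60 and 8.41 in gerbil E21 and E23, against 20.4 and 5.49 in mouse PEK and SEK. As printed, the mouse SEK value lay between the 2 gerbil values, so the species overlapped. The corrected log2 difference was -2.37 ± 0.69, and the call ended without the length correction (-1.31), with neither centring nor length correction (-0.70) and without rescaling (-1.71). The Tgfbr2 to Tgfbr3 ratio did separate the species, at 5.46 and 4.69 in gerbil, against 0.310 and 0.723 in mouse.

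**Figure D3:**
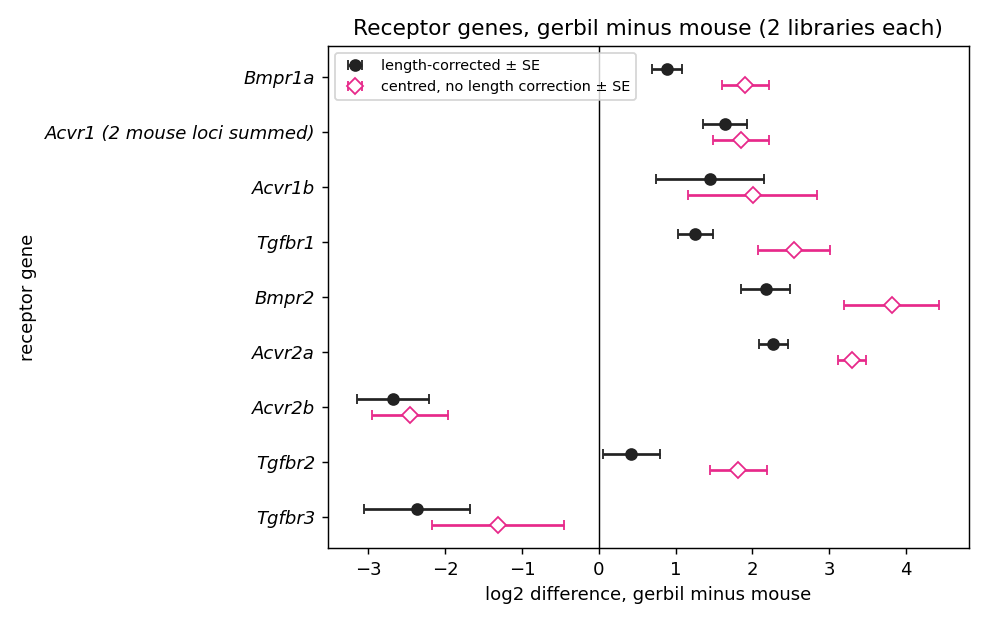
Log2 difference, gerbil minus mouse, for the 9 receptor genes above the minimum level (Acvr1 with its 2 mouse loci summed), with the length correction (filled circles) and without it (open diamonds). Bars are SE from 2 libraries per species. Acvr2b stays at -2.68 and -2.45, while Bmpr2 is at 2.17 with the correction and 3.81 without it, and Tgfbr2 at 0.43 with it and 1.82 without it.

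Without the length correction the picture of the set was broader toward gerbil: 5 of 8 receptors were called higher in gerbil (Bmpr1a, Tgfbr1, Bmpr2, Acvr2a and Tgfbr2) and 1 in mouse (Acvr2b), against 18.5% and 19.5% of all genes tested. With neither centring nor length correction, 6 were called higher in gerbil and 1 in mouse, against 29.4% and 12.2% of all genes, whose median difference was then 0.61. The receptor transcripts are between 3573 bases (Acvr2b) and 12899 bases (Bmpr2) long. Counting any gap at all between the species after the correction, 5 receptors lay higher in gerbil and 2 in mouse, against 37.1% and 37.3% of all genes.

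The order of the receptors within a library differed between the species. Ranks are by deposited value, without the length correction, so the length trend is part of them. Acvr2b had ranks 7 and 8 in gerbil, against 1 and 1 in mouse, and Bmpr2 ranks 1 and 1 in gerbil, against 7 and 8 in mouse. In gerbil E21 and E23, Bmpr2 (24.04 and 23.78 TPM), Acvr1 (23.5 and 18.6 TPM) and Bmpr1a (18.6 and 20.3 TPM) led, and of these neighbours Acvr1 and Bmpr1a overlapped in range. Tgfbr1 (13.3 and 13.2 TPM), Acvr1b (14.9 and 8.94 TPM) and Acvr2a (14.1 and 9.71 TPM) followed and overlapped with one another. Acvr2b (4.76 and 2.11 TPM) and Tgfbr2 (3.33 and 4.64 TPM) overlapped below them, ahead of Tgfbr3 (0.61 and 0.99 TPM) and Bmpr1b.

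In mouse PEK and SEK, Acvr2b (48.8 and 38.5 FPKM) led in both libraries and held 41.1% and 51.7% of the summed value of all receptors, with the larger Acvr1 locus. Acvr1 (15.3 and 9.87 FPKM) and Bmpr1a (14.8 and 9.92 FPKM) came next and overlapped. Acvr1b (12.0 and 3.50 FPKM), Tgfbr3 (8.95 and 2.68 FPKM), Tgfbr1 (7.34 and 3.50 FPKM), Bmpr2 (6.01 and 2.17 FPKM), Acvr2a (2.66 and 2.28 FPKM) and Tgfbr2 (2.77 and 1.94 FPKM) had ranges that overlapped their neighbours in that order. Bmpr1b was last in all 4 libraries.

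Between the 2 mouse libraries, all 10 receptor loci above the minimum had a centred ratio below 0, and 4 were past 2-fold. With 1 library of each name there is no replicate check and no test. Acvr1b had 3.50 FPKM in SEK, against 12.0 FPKM in PEK, which is 2.67-fold lower after centring on the median of all genes (log2 ratio -1.42). Tgfbr3 had 2.68 FPKM in SEK, against 8.95 FPKM in PEK (-1.33), and Bmpr2 had 2.17 FPKM in SEK, against 6.01 FPKM in PEK (-1.04). The small Acvr1 locus was also past 2-fold, at 0.510 FPKM in SEK and 2.61 FPKM in PEK (-1.15), but the larger one was not (-0.48). Counted over the set, 4 of 10 receptor loci were lower in SEK by 2-fold and 0 were higher, against 9.32% and 8.78% of 12259 loci. Acvr2b (-0.23) and Acvr2a (-0.05) were nearly level between the libraries.

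With the length trend between SEK and PEK removed, 2 of 10 loci stayed past 2-fold, Acvr1b (-1.12) and the small Acvr1 locus (-1.06), against 6.88% of loci lower and 7.03% higher. Bmpr2 (-0.37) and Tgfbr3 (-0.87) were then within 2-fold, and Acvr2a (0.33), Tgfbr2 (0.26) and Bmpr1a (0.02) were above 0. The small Acvr1 locus spans 1768 bases but was corrected with the 3631 bases of the annotated Acvr1 gene, so its value is not corrected for its own length.

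The 2 gerbil libraries were closer to each other. None of the 8 receptors with a mean of at least 1 TPM differed by 2-fold between E23 and E21, where 2.43% of 9113 genes were higher in E23 and 0.900% lower. At 1.5-fold, Tgfbr2 was higher and Acvr2b lower in E23, 1 of 8 receptors each way, against 6.92% and 5.49% of genes. The widest log2 ratios were those of Acvr2b, with 2.11 TPM in E23 and 4.76 TPM in E21 (-0.67), and Tgfbr2, with 4.64 TPM in E23 and 3.33 TPM in E21 (0.60). Bmpr2 had 23.78 TPM in E23 and 24.04 TPM in E21 (0.20), and Tgfbr1 13.2 TPM in E23 and 13.3 TPM in E21 (0.20). Acvr1b had 8.94 TPM in E23 and 14.9 TPM in E21 (-0.46), and the labels do not say whether the gerbil pair of libraries corresponds to the mouse pair.

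**Figure D4:**
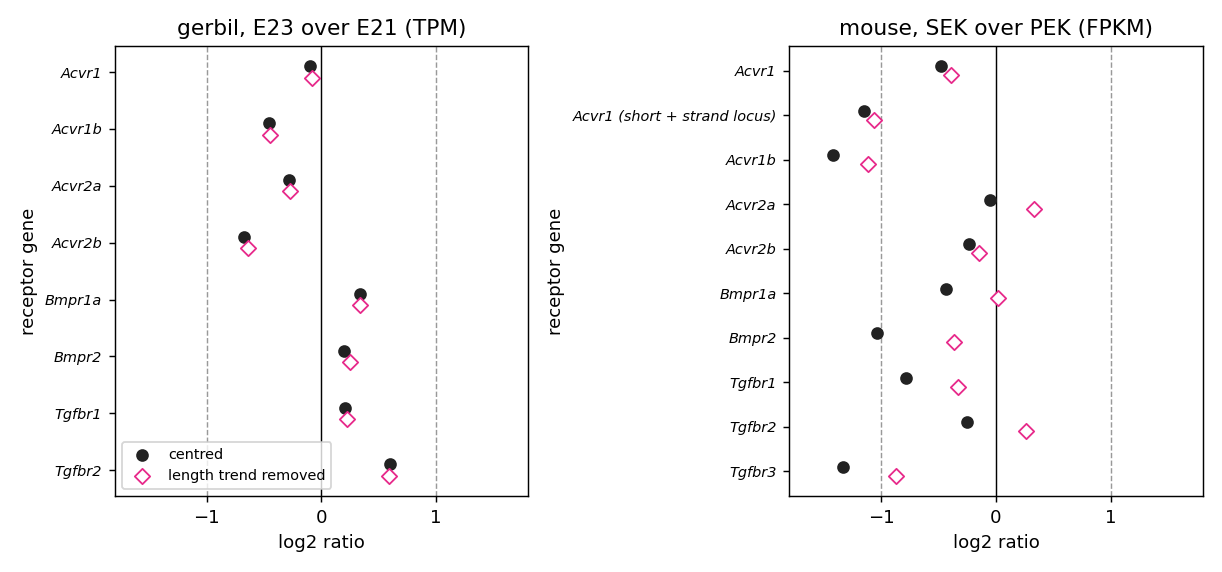
Log2 ratio of each receptor row between the 2 libraries of a species, E23 over E21 in gerbil (left) and SEK over PEK in mouse (right), centred on the median of all genes (filled circles) and with the length trend removed (open diamonds). Dashed lines mark 2-fold. All gerbil receptors lie inside the dashed lines, and in mouse Acvr1b and the small Acvr1 locus lie beyond them on both scales.

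For the other genes of the pathway, calls are counted over members that averaged at least 1 in gerbil and at least 1 in mouse, so that none entered through one species alone. Over all 9288 such genes, 12.5% were called higher in gerbil and 13.4% in mouse.

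Of 6 activin, Gdf and TGF-beta ligands counted this way, 1 was called toward gerbil and 2 toward mouse. Inhba, which encodes the activin A subunit that Acvr2a and Acvr2b bind, had levels of 31.5 and 63.3 in gerbil, against 316 in mouse PEK and 85.2 in mouse SEK (-3.73 ± 0.77). Tgfb1 was lower in gerbil as well (-3.56 ± 0.39), and Tgfb2 was 2.83-fold higher in gerbil, at 460 and 314 in gerbil against 60.5 and 37.5 in mouse. The Inhba call ended with neither centring nor length correction (-1.85) and the Tgfb2 call with a GC trend also removed (1.19).

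Of 5 BMP ligands, 0 were called in either direction. Of 10 extracellular antagonists, 1 was called toward gerbil and 0 toward mouse. It was Fstl3, a follistatin-like activin inhibitor (2.08 ± 0.30, but not called at 1.20 when length was left uncorrected). Among the members under that minimum in one species, the 3 widest apart are given by their levels alone. Bmp8b was at 17.9 and 28.1 in gerbil, against 0.637 and 0.850 in mouse, and Gdf7 was at 0.452 and 0 in gerbil, against 8.50 and 14.5 in mouse. Cer1, which encodes a secreted inhibitor of nodal and BMP, was at 112 and 59.6 in gerbil, against 0.192 and 0.449 in mouse.

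Of 11 receptor regulators, which act on the receptors or their signalling inside the cell, 3 were called toward gerbil, 2 toward mouse and 6 in neither direction, against the same 12.5% and 13.4% of genes. Their median log2 difference was 0.54. Zfyve16, which encodes an endosomal protein that binds BMP Smads (2.56 ± 0.20), and the ubiquitin ligase gene Wwp1 (2.28 ± 0.09) were higher in gerbil. Higher in mouse were Pmepa1, an inhibitor of TGF-beta signalling (-2.37 ± 0.26), and Smad6, an inhibitory Smad (-2.05 ± 0.25). Of 6 other receptors and coreceptors, 1 was called toward gerbil and 0 toward mouse. It was Cd109, a TGF-beta coreceptor, at 105 and 124 in gerbil, against 2.19 and 4.01 in mouse (3.21 ± 0.62). Amhr2, the receptor of anti-Müllerian hormone, was listed at 0 in both gerbil libraries and was at 1.60 and 2.51 in mouse.

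Among the Smads that the receptors phosphorylate or that join them, 2 of 5 were called higher in gerbil and 1 in mouse, against 12.5% and 13.4% of genes. Smad9 (2.47 ± 0.27) and Smad5 (1.51 ± 0.39), both of the BMP branch, were higher in gerbil, and Smad1, of the same branch, was called higher in mouse (-1.16 ± 0.11). Smad9 was at 35.0 and 34.6 in gerbil, against 1.16 and 0.959 in mouse. Its mouse values thus lie near the minimum level of 1, and its difference was 3.11 with a pseudocount of 0.1. The Smad1 levels overlapped as printed, at 102 and 96.0 in gerbil, against 106 and 61.7 in mouse, and its call ended without the length correction (-0.33), with no filter on low levels (-1.03) and with a minimum of 10 in each species (-1.05). The Smad5 call ended with a pseudocount of 0.1 (1.40), with a GC trend also removed (1.13) and without rescaling (1.35). Of 10 response genes, 0 were called toward gerbil and 5 toward mouse, against 12.5% and 13.4% of genes, and their median was -1.85. The cell cycle inhibitor gene Cdkn1a (-5.03 ± 0.42) and Cdkn1c (-3.46 ± 0.46) had the widest gaps, and Cdkn1a is also one of the enamel knot markers. These lists were chosen with earlier results of the same data known, and the comparison shares its 4 libraries with that of the receptors.

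The genes with corrected levels most like those of each called receptor were looked up over the 4 libraries by Euclidean distance. Hltf and S100pbp were nearest to Bmpr2, at distances of 0.15 and 0.15 log2 units, followed by Ero1l at 0.26. Rmi1 (0.37), Wwp1 (0.40) and Anxa11 (0.44) were nearest to Acvr2a. Crebzf (0.34), Tpgs1 (0.43) and Sirt7 (0.46) were nearest to Acvr2b, and Borcs6 (0.44), Lmntd2 (0.55) and Batf3 (0.62) to Tgfbr3. With 4 libraries of 2 species, such a likeness is mainly a like difference between the species.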

How the data were processed

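Levels of 4 libraries, 2 per species, were compared. Per the submitters' processing notes, cutadapt 2.8, STAR 2.7.1a and RSEM 1.3.1 were used with GRCm38 and mm10, with no step tied to a table. No source used here names the gerbil build. Per the file headers, the authors deposited FPKM per assembled locus for mouse and TPM per gene for gerbil. Of the gerbil columns, 4 more that hold per-sample values were not used. Column names show a library's species but no number.

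Genes were matched by symbol where it occurs once per table, and LOC, Gm and Rik names were left out. Transcript length was the exon union in the GENCODE M21 basic annotation (GRCm38). The length trend was the median deviation in 40 bins of genes, joined by straight lines. The tested genes had a length and a level of 1 or more on average over all libraries. Calls in the pathway lists were counted over genes that also averaged 1 or more in each species, a restriction added after the data were seen. Comparisons within a table used log2(value + 1) on the deposited values of rows with a gene name. Symbols equalled those of the mouse Ensembl ID in the reference for 13129 of 13141 genes. The procedure was tested on simulated data with a length trend and the same noise in every library. That noise was narrower than the spread between the mouse libraries, and no GC trend was simulated. So the calls in these data were not checked by it. Python 3.11.15, numpy 2.4.6, pandas 2.3.3 and matplotlib 3.10.9 were used.

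The members, lists and call rule were chosen with earlier results of these data known. All 10 receptors are named, then at most 2 called members per direction of each other list, by the widest gap, and the 3 genes nearest in pattern to each called receptor. Promoter sequence was found in RefSeq for 9 of the 10 receptors, all but Tgfbr3. Alternatives changed the pseudocount, filter, centring, length and GC correction, rescaling, symbol matching and call rule, and left out each library. A few tiny mouse loci hold FPKM up to 1.24e+11, so with rows of a symbol summed, the library totals stayed those of the genes matched once.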

Additional observations from a re-analysis of the deposited data

How the results depend on the processing

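After the length correction, 2 receptors were called toward gerbil and 2 toward mouse. With a minimum level of 10 in each species, 4 receptors were left, and 1 was called in each direction (Tgfbr1 in gerbil, Acvr2b in mouse), since that minimum drops Bmpr2 and Acvr2a for their mouse levels and Tgfbr3 for its gerbil level. Without the length correction the counts were 5 in gerbil and 1 in mouse, and with neither centring nor length correction 6 and 1. Without rescaling, 1 was called higher in mouse, and with any gap counted, 5 higher in gerbil. Leaving out 1 library gave 3 to 4 receptors higher in gerbil, 4 of them without mouse PEK or without gerbil E23, and 2 higher in mouse each time. Leaving out a library loosens the call rule, so kept or gained calls show little: the share of all genes called was then 16.6% to 19.4% toward gerbil and 18.7% to 20.5% toward mouse. Bmpr2 and Acvr2a kept their calls wherever they were tested, and Acvr2b in every alternative computed. No called receptor changed sign, while Smad1 did with neither centring nor length correction (0.28, against -1.16). A pseudocount of 0.1, a GC trend also removed and rows of a symbol summed moved no call of the 8. Between mouse SEK and PEK, 2 loci were lower by 2-fold with the length trend removed, against 4 without that step. Between gerbil E23 and E21, 1 receptor was higher and 1 lower at 1.5-fold, against 6.92% and 5.49% of genes, where 0 and 0 passed 2-fold.

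No paired analysis was possible because the columns carry no sample numbers. An exact interval for the ratio of counts between gerbil E23 and E21 was planned for the case that counts were used. It was not computed, as only the TPM columns of gerbil were used. How far depth limits the low values of Bmpr1b is unknown.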
